A study of Mus musculus with 2 samples.

Results

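The Mir17-92 cluster is a set of 6 microRNA genes, Mir17, Mir18, Mir19a, Mir20a, Mir19b-1 and Mir92-1, that lie one after another in the non-coding host gene Mir17hg on mouse chromosome 14. The rule takes the members by gene name and position and uses no measured value, although earlier results of these data were known when the cluster was chosen. All 6 were found among the 1973 microRNA genes of the tables. Small RNA had been sequenced from forebrain dissected at embryonic day 13.5 from healthy mice of the B6NCrl strain, without a treatment or an altered allele in the labels, and limited to RNA under 30 nucleotides. There was 1 group with 2 libraries, biological replicates 1 and 2, each made from tissue pooled over both sexes. They carry different biosample identifiers under 1 donor identifier, so the spread between them may be partly technical. Forebrain at this stage holds progenitors, neurons, vessels and blood. In such bulk tissue a smaller number of cells of a type and less RNA per cell cannot be told apart.

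Replicate 1 held 4117752 reads counted on microRNA genes and replicate 2 held 3908953, so that 1 count stood for 0.243 and 0.256 CPM (counts in each 1000000 gene counts of the library). Reads that mapped to several places stand in a row of their own and made up 40.6% and 43.9% of all reads. They were taken here to add no count to any gene, which is an assumption, as the counting is not described in the sources used here. With detection set at 10 or more counts in both replicates, 377 of the 1973 genes were detected, all 6 members among them. Of the neural microRNA genes looked up as a check of the tissue, 8 of 10 measured were detected, with a summed level of 27236 CPM in replicate 1 and 23525 CPM in replicate 2. Most of that sum came from Mir92b and Mir137, while Mir9-2 and the 3 Mir124a genes, the latter known as markers of neurons, had 3 to 20 counts each. Mir9-3 had 3103 and 2823 counts. Mir9 and Mir124a each have several numbered gene copies, and reads that fit more than 1 copy would be uncounted under the assumption above. Low counts of these genes therefore need not mean low levels, and the part of such reads was not tested. Genes known from other cell types were counted as well. The endothelial gene Mir126a reached 16042 and 18828 CPM. The mesenchymal and mural genes summed to 3417 and 4147 CPM (2 of 3 detected), most of it from Mir143 (12687 and 15517 counts). Mir145a, with 201 and 194 counts, was not in that sum. Mir9-1, Mir142 and Mir145 were on the lists but not measured under these names. The Hox-embedded genes of hindbrain and trunk summed to 446 and 293 CPM (4 of 6). Leukocyte genes summed to 274 and 278 CPM (3 of 4, Mir142b at 0) and erythroid genes to 159 and 86.2 CPM (3 of 3). Striated muscle genes summed to 48.3 and 37.1 CPM (2 of 4, Mir1a-1 and Mir133a-1 at 0), and the liver gene Mir122 reached 59.3 and 52.7 CPM. Mir1a-1 and Mir133a-1 are numbered gene copies too, and Mir133a-2 also had 0 counts. Under the assumption above, 0 counts on these genes need not mean absence. The part of these cell types in the levels of the cluster was not tested.

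MicroRNAs are cut from hairpins in a longer transcript, first in the nucleus by Drosha and then in the cytoplasm by Dicer. The strand that is kept, the guide, is loaded into an Argonaute protein and pairs with messenger RNAs mainly through its seed, bases 2 to 8 from the 5′ end. The Mir17-92 transcript is known as a target of Myc and E2F factors and as a promoter of proliferation and survival. In the embryonic cortex it is known for its part in the expansion of neural progenitors, and Bcl2l11 (Bim) is among its established targets. A pair of related clusters arose by duplication: Mir106b-25 on chromosome 5, in the replication gene Mcm7, and Mir106a-363 on chromosome X.

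The guide strands show why 6 genes amount to 4 targeting families. They are given 5′ to 3′ from RefSeq on build GRCm38.p6, in their order along the chromosome, with the seed in capitals.
miR-17-5p of Mir17: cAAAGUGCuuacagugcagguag
miR-18a-5p of Mir18: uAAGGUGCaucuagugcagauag
miR-19a-3p of Mir19a: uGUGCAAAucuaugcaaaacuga
miR-20a-5p of Mir20a: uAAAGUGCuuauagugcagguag
miR-19b-3p of Mir19b-1: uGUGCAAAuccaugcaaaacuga
miR-92a-3p of Mir92-1: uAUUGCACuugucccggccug

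Mir17 and Mir20a share the seed AAAGUGC, and their guides differ only by C1U and C12U (base of miR-17-5p, position from 1 at the 5′ end, base of miR-20a-5p). The seed of Mir18 is AAGGUGC, that of Mir19a and Mir19b-1 GUGCAAA, and that of Mir92-1 AUUGCAC. The guides of Mir19a and Mir19b-1 differ by U11C alone. The guide lies in the 5′ arm of the hairpin in Mir17, Mir18 and Mir20a and in the 3′ arm in the other 3 genes. The guide arms are those generally known as such, since the tables hold 1 count for each gene and do not separate the arms.

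The hairpins run from 115043671 to 115044506 on the plus strand of chromosome 14 (GRCm38, also called mm10), a span of 836 bases. The layout drawn from these positions shows 6 closely packed hairpins, with 35 to 96 bases between neighbours. All of them lie in exon 2 of Mir17hg (115043271 to 115046727), a non-coding exon, as GENCODE M21 draws the gene. The host transcript itself was not analysed here.

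**Figure D1:**
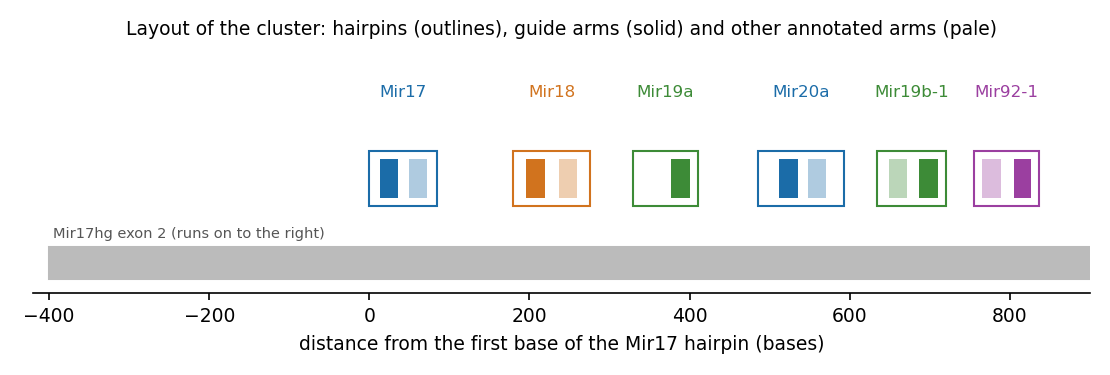
Map of the cluster along the distance from the first base of the Mir17 hairpin, in bases. Outlines are hairpins, solid blocks guide arms, pale blocks the other annotated arms and the grey bar the host exon, with colours by seed family; the solid block sits on the left in Mir17, Mir18 and Mir20a and on the right in the other 3.

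Mir17 was the leading gene of the cluster and one of the microRNA genes with the most counts. It had 199902 counts in replicate 1 and 193219 in replicate 2, or 48546 and 49430 CPM, and ranked 4 of 1973 genes in both. The mean was 48988 ± 625 CPM (SD, n = 2). The rank is one of counted reads, as multi-mapped reads were taken to add no count to any gene. Mir20a, the other gene with this seed, had 77355 and 89308 counts, or 18786 and 22847 CPM, with ranks of 13 and 11. Its mean of 20816 ± 2872 CPM had the widest spread of the 6 relative to its level, an SD of 13.8% of the mean against 1.28% for Mir17. Over all detected genes the median of that measure was 9.50%, so with library totals Mir17 was among the steadier genes and Mir20a stood somewhat above the middle. The spread of Mir17 depends on the scaling: with TMM library sizes (edgeR) its mean was 49040 ± 3236 CPM.

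Mir18, whose seed differs from that of Mir17 by a single base, was at an intermediate level. It had 28509 and 25976 counts, or 6923 and 6645 CPM, a mean of 6784 ± 197 CPM, and ranked 30 in both libraries. Mir92-1, the last gene of the cluster, had 19810 and 19495 counts, or 4811 and 4987 CPM, a mean of 4899 ± 125 CPM. With library totals both varied less between the libraries than the median detected gene. With TMM library sizes the means were 6784 ± 165 CPM for Mir18 and 4906 ± 386 CPM for Mir92-1, and no median was computed with that scaling. Both genes stood well below Mir17 and Mir20a.

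The Mir19 genes, whose family is known as the main oncogenic component of the cluster, had few reads. Mir19a had 366 and 379 counts, or 88.9 and 97.0 CPM, a mean of 92.9 ± 5.71 CPM. Mir19b-1 had 91 and 93 counts, or 22.1 and 23.8 CPM, a mean of 22.9 ± 1.20 CPM. Both genes lay far under the other 4 in either library, although Mir19a stands between Mir18 and Mir20a on the same transcript. The level did not follow the position in the cluster: from the 5′ end it went down from Mir17 through Mir18 to Mir19a, up at Mir20a, down at Mir19b-1 and up again at Mir92-1.

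**Figure D2:**
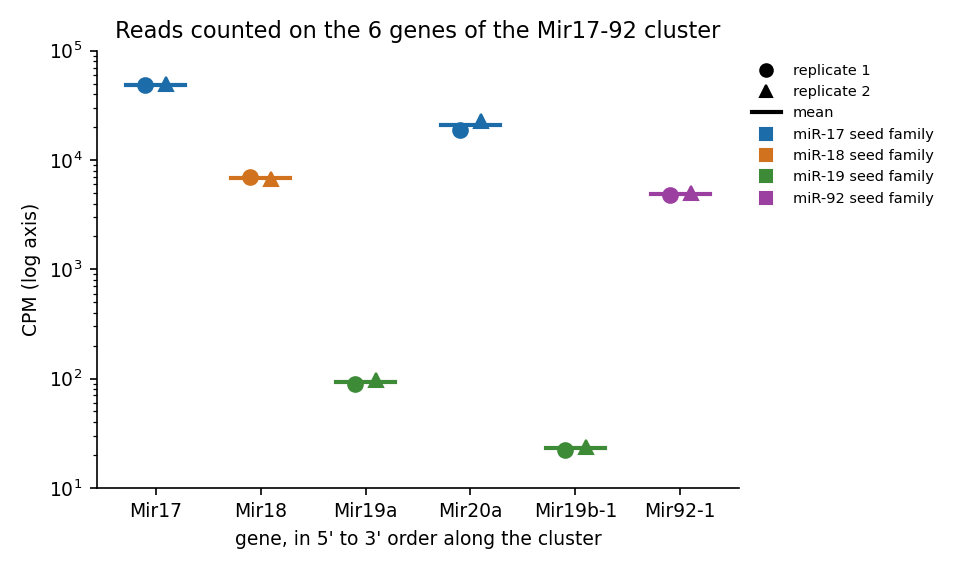
Counts in each 1000000 gene counts (CPM, log axis) of the 6 genes in their order along the cluster; circles are replicate 1, triangles replicate 2, bars the mean, and colours the seed family. Mir17 and Mir20a lie between 18786 and 49430 CPM and the Mir19 genes between 22.1 and 97.0 CPM.

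By level the order was Mir17, Mir20a, Mir18, Mir92-1, Mir19a and Mir19b-1 in both libraries. Every neighbouring pair in this order differed by more than the sum of their SDs. The closest pair was Mir18 over Mir92-1, with a ratio of counts of 1.44 in replicate 1 (95% exact interval 1.41 to 1.47) and 1.33 in replicate 2 (1.31 to 1.36). The widest step was from Mir92-1 to Mir19a, 54.1 (48.8 to 60.2) and 51.4 (46.5 to 57.1). All intervals here allow for counting error alone: PCR copies of a molecule are counted as separate reads. Divided by gene length the order was the same, from 58319 CPM in each 100 bases for Mir17 to 26.4 for Mir19b-1. Reads of different microRNAs need not be captured equally well, which was not measured, so the order is one of reads. Reads that Mir92-1 and Mir19b-1 share with their copies (below) are taken as uncounted. How far such reads would move the places of these genes, as that of Mir92-1 after Mir18, was not tested.

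Relative to Mir17, which takes out the scaling of the libraries, Mir20a moved and the other genes moved less. Mir92-1 had 9.91 reads for every 100 of Mir17 in replicate 1 (95% exact interval 9.77 to 10.1) and 10.1 in replicate 2 (9.94 to 10.2). Mir18 had 14.3 (14.1 to 14.4) and 13.4 (13.3 to 13.6). Mir19a had 0.183 (0.165 to 0.203) and 0.196 (0.177 to 0.217), and Mir19b-1 0.0455 (0.0367 to 0.0559) and 0.0481 (0.0388 to 0.0590). Mir20a went from 38.7 (38.4 to 39.0) to 46.2 (45.9 to 46.6). Thus the proportions of Mir18 and Mir20a to Mir17 went in opposite directions by more than counting error, and the intervals of the other 3 overlapped.

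The 6 genes together held 326033 and 328470 counts. That was 7.92% (95% Wilson interval 7.89 to 7.94) and 8.40% (8.38 to 8.43) of the gene counts. The mean was 8.16% ± 0.343. Of the counts of the cluster the miR-17 seed family (Mir17 and Mir20a) held 85.0% (84.9 to 85.2) and 86.0% (85.9 to 86.1). Mir18 held 8.74% and 7.91%, a mean of 8.33% ± 0.591. Mir92-1 held 6.08% (5.99 to 6.16) and 5.94% (5.85 to 6.02). The Mir19 genes held 0.140% (0.128 to 0.154) and 0.144% (0.131 to 0.157). Nearly all of what was counted on the cluster thus came from the miR-17, miR-18 and miR-92 families. The 3 genes with the guide in the 5′ arm held 93.9% ± 0.0972 of the counts of the cluster, and each of them stood above each gene with the guide in the 3′ arm. Among the latter, Mir19b-1 and Mir92-1 have copies on chromosome X (below), and reads shared with these are taken as uncounted. In the chromosome 5 cluster the arms divided in this way as well. Mir93 (23411 CPM) and Mir106b (14610 CPM) have 5′ guides and exceeded Mir25 (748 CPM), which has a 3′ guide. In the chromosome X cluster the arms did not divide in this way. There Mir363 (741 CPM) and Mir92-2 (260 CPM), with 3′ guides, exceeded Mir18b (91.2 CPM), with a 5′ guide.

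The counts of Mir19b-1 and Mir92-1 need to be read against their copies on chromosome X. The hairpins below are printed from the GENCODE M21 transcripts, 5′ to 3′, with the longest stretch shared by the pair in capitals, because a read that lies wholly within it fits both genes. Mir19b-1 lies at chr14:115044305-115044391 (plus strand), Mir19b-2 at chrX:52741983-52742066 (minus strand), Mir92-1 at chr14:115044427-115044506 (plus strand) and Mir92-2 at chrX:52741838-52741928 (minus strand).
Mir19b-1: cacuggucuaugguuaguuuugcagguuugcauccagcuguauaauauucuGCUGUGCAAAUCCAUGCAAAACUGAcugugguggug
Mir19b-2: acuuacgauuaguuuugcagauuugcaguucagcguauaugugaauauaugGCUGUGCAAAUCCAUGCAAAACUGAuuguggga
Mir92-1: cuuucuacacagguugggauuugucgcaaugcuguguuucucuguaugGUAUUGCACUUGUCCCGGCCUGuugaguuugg
Mir92-2: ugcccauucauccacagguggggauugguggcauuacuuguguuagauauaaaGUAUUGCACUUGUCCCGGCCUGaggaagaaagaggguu

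In Mir19b-1 the shared stretch is 25 bases long and takes in the whole 23-base guide with 2 bases before it. In Mir92-1 it is 22 bases long and takes in the whole 21-base guide with 1 base before it. In both pairs the sequences part directly after the last base of the guide, so a guide read that runs on by a templated base fits 1 gene, and one that ends there fits both. If reads that fit both were left out of the counts, as assumed here, the counts of these genes and their ratios to the copies rest on the other reads. Which reads made up the counts is not in the tables, and the multi-mapped reads are not given by gene, so the part of shared reads in the low count of Mir19b-1 was not tested. Mir92-1 had 218 and 210 times the counts of Mir19b-1, and both guides lie within a shared stretch. Mir19a had no copy by the same measure: the longest stretch it shared with another annotated microRNA hairpin, Mir19b-2, was 13 bases. Its level was 92.9 ± 5.71 CPM. The measure takes exact stretches only, and the guides of Mir19a and Mir19b-1 differ at 1 of 23 bases. The part of shared reads in the low count of Mir19a was not tested either. For Mir17, Mir18 and Mir20a the longest shared stretch was 13 to 17 bases, and no other gene of RefSeq carried their guide. This search covered annotated microRNA hairpins and not the genome.

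Against the paralog clusters, the chromosome 14 cluster held more counts in both libraries. It had 2.10 times those of the chromosome 5 cluster in replicate 1 and 2.11 times in replicate 2 (mean 2.10 ± 0.00581). It had 23.8 and 30.1 times those of the chromosome X cluster (mean 26.9 ± 4.44). The design of 1 group with 2 libraries gives no permutation test for such a ratio. The ratio to chromosome X was higher in replicate 2 and that to chromosome 5 was nearly the same.

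The guides of the paralogs with the miR-17 seed show how close these genes are to Mir17 and Mir20a, again with the seed in capitals.
miR-93-5p of Mir93: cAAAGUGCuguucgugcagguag
miR-106b-5p of Mir106b: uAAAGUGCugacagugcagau
miR-106a-5p of Mir106a: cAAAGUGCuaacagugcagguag
miR-20b-5p of Mir20b: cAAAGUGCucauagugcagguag

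From miR-17-5p, miR-106a-5p differs only by U10A and miR-20b-5p by U10C and C12U, while miR-106b-5p differs by C1U, U10G and G20A over its 21 bases. The guide miR-93-5p differs from it by U10G, A11U, C12U and A13C. Genes with a mature arm of this seed numbered 7, and Mir17 and Mir20a held 63.3% (Wilson 63.2 to 63.5) and 63.8% (63.7 to 64.0) of the reads on these. Mir93 was at 22627 and 24195 CPM and Mir106b at 14302 and 14917 CPM, so both lay near Mir20a. The mean of Mir20a was below that of Mir93 by less than the sum of their SDs, with a ratio of 0.830 in replicate 1 and 0.944 in replicate 2. Mir20a exceeded Mir106b 1.31-fold and 1.53-fold. Mir106a (1333 and 1089 CPM) and Mir20b (761 and 738 CPM) were far lower, and Mir6383 had 0 counts in both libraries, which allows up to 0.729 and 0.767 CPM.

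In the miR-18 family Mir18 held 98.5% (98.3 to 98.6) and 98.9% (98.7 to 99.0) of the counts, and its only relative, Mir18b on chromosome X, had 437 and 298 counts. Mir19a and Mir19b-1 held 94.6% (92.2 to 96.3) and 94.4% (92.0 to 96.1) of the miR-19 family, with 26 and 28 counts on Mir19b-2. The miR-92 family was the exception. Mir92-1 held 23.0% (22.7 to 23.3) and 25.1% (24.8 to 25.4) of its counts, and the leading gene was Mir92b, which lies outside these clusters on chromosome 3, at 13897 and 12964 CPM. Mir92b had 2.89 (2.84 to 2.94) and 2.60 (2.56 to 2.64) times the counts of Mir92-1. The whole guide of Mir92-1 lies in the stretch shared with Mir92-2, while Mir92b had no copy by the same measure. The share of Mir92-1 and its ratio to Mir92b thus hold for the reads counted, and the part of shared reads was not tested. The other measured genes with this seed, Mir25, Mir363, Mir32, Mir92-2 and Mir367, each had lower counts than Mir92-1.

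**Figure D3:**
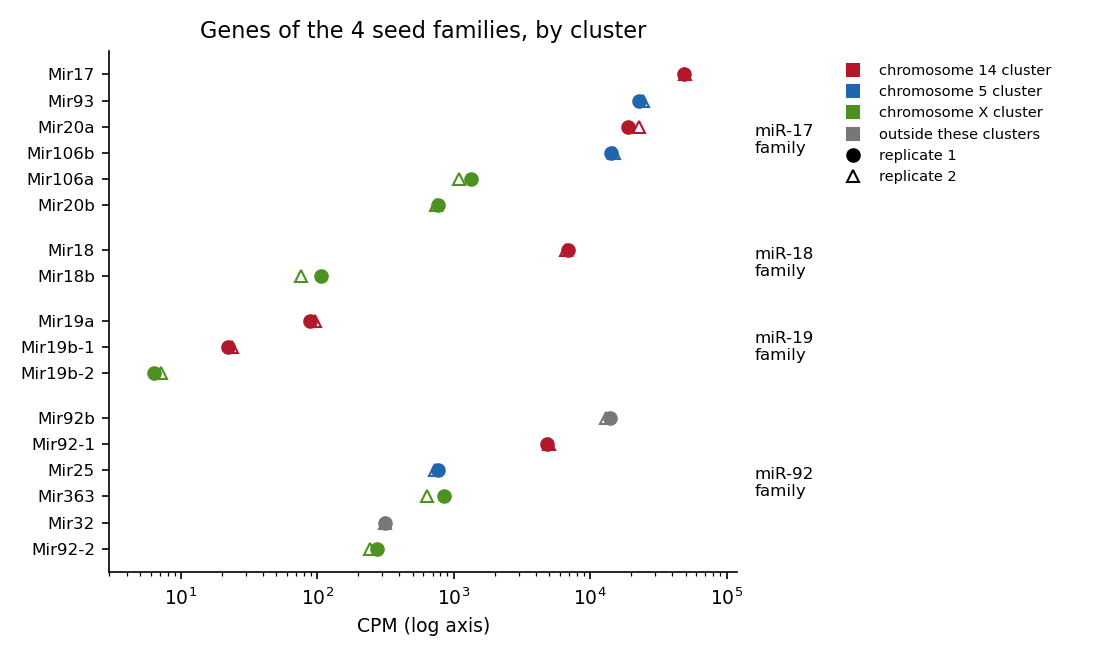
CPM (log axis) of the genes that carry each of the 4 seeds, by seed family; circles are replicate 1, triangles replicate 2, and colours give the cluster. Mir6383 and Mir367, with 0 counts in replicate 1, are left out; Mir92b is above Mir92-1, and in the other families a chromosome 14 gene leads.

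Gene by gene, each of the 5 members that has a counterpart at the same place in the chromosome X cluster exceeded it in both libraries. The ratio was 36.4 (95% exact interval 35.5 to 37.4) and 45.4 (44.0 to 46.8) for Mir17 over Mir106a. It was 65.2 (59.4 to 71.9) and 87.2 (77.8 to 98.0) for Mir18 over Mir18b, and 24.7 (23.8 to 25.6) and 30.9 (29.8 to 32.1) for Mir20a over Mir20b. These 3 pairs have no copies. For the pairs with shared guides it was 17.5 (16.5 to 18.6) and 20.4 (19.1 to 21.8) for Mir92-1 over Mir92-2, and 3.50 (2.24 to 5.64) and 3.32 (2.16 to 5.27) for Mir19b-1 over Mir19b-2. The excess was thus uneven, smallest for the Mir19b pair in either library, where both genes had under 100 counts. The Mir19 gene was the lowest member on chromosome X as on chromosome 14, and the chromosome 5 cluster has none.

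**Figure D4:**
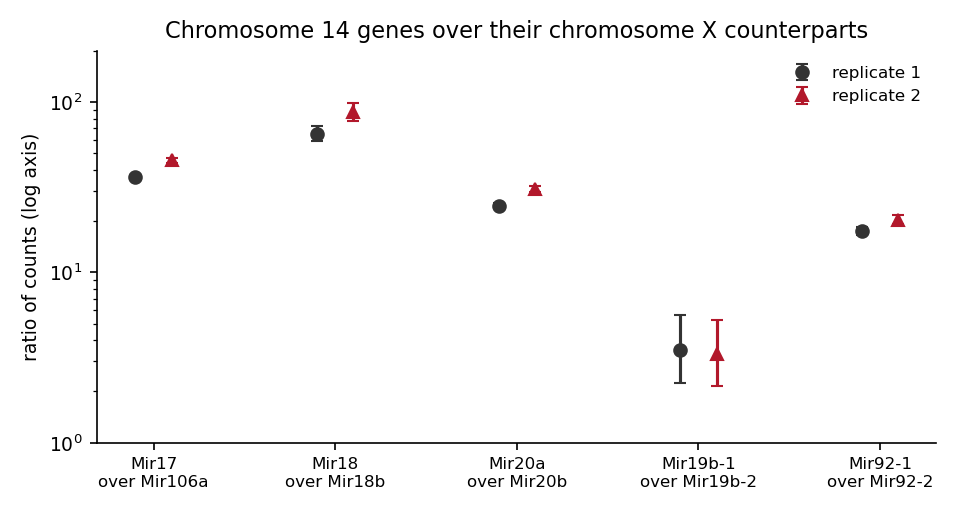
Ratio of counts (log axis) of 5 chromosome 14 genes over the genes at the same place in the chromosome X cluster; circles are replicate 1, triangles replicate 2, and bars 95% exact intervals for counting error. The Mir18 pair is highest, at 65.2 and 87.2, and the Mir19b pair lowest, at 3.50 and 3.32.

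Between the libraries the members differed little in size. On a log2 scale, after TMM scaling (edgeR), replicate 2 exceeded replicate 1 by 0.39 for Mir20a (95% exact interval 0.38 to 0.40), 0.16 for Mir92-1 (0.13 to 0.19), 0.13 for Mir17 (0.13 to 0.14) and 0.05 for Mir18 (0.03 to 0.07). These 4 passed the exact binomial test at a Benjamini-Hochberg adjusted p under 0.05, each higher in replicate 2. Of all 475 genes tested, 38.9% passed, 18.1% higher and 20.8% lower. The split was 86 higher to 99 lower with TMM, 67 to 118 with DESeq2 size factors and 54 to 141 with library totals. The test covers counting error only and compares 2 libraries, not conditions, so that deeply counted genes pass it at small ratios. Mir19a stood at 0.23 (0.02 to 0.45; exact binomial adjusted p = 0.0676) and Mir19b-1 at 0.21 (-0.22 to 0.65; exact binomial adjusted p = 0.505). The median of the 6 was 0.19, against 0.02 over all genes tested. With library totals in place of TMM, which moves every ratio by -0.11, Mir18 stood at -0.059 and was lower in replicate 2.

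Of 11 related genes 2 passed as higher in replicate 2, Mir93 and Mir106b of the chromosome 5 cluster (0.21 and 0.17), and 3 as lower, all of the chromosome X cluster: Mir363 (-0.30), Mir18b (-0.37) and Mir106a (-0.18). The remaining 6 did not pass, and these counts are near the shares of all genes tested, 18.1% higher and 20.8% lower. The ratio of Mir20a was larger in size than that of 76.7% of the detected genes, and 88.6% of the detected genes lay within 1.5-fold between the libraries, as did all 6 members.

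**Figure D5:**
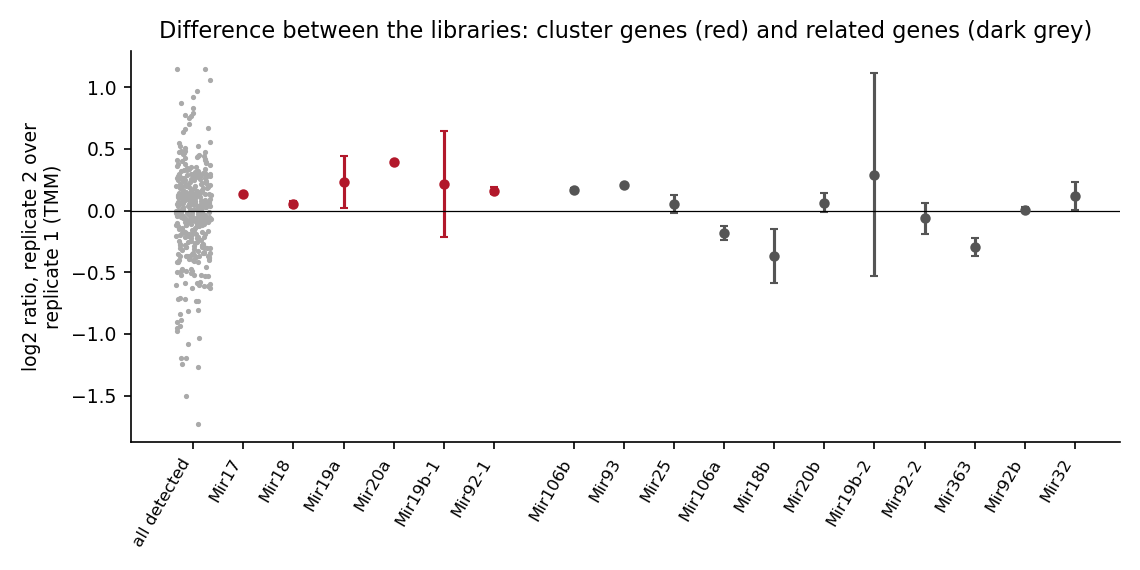
Log2 ratio of replicate 2 over replicate 1 (TMM) with 95% exact intervals for the 6 cluster genes (red) and 11 related genes (dark grey), beside the 377 detected genes (light grey points). The cluster genes lie between 0.05 and 0.39, within the range of the detected genes; with library totals every value moves by -0.11 and Mir18 falls below 0.

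Genes at a level most like the members were sought as the 2 detected genes outside the cluster with the smallest distance in log2(CPM + 1) over the 2 libraries. For Mir17 these were Mir335 (52295 ± 551 CPM, distance 0.13) and Mirlet7g (58085 ± 4019 CPM, 0.35), and for Mir20a Mir30e (20154 ± 145 CPM, 0.22) and Mir93 (23411 ± 1109 CPM, 0.28). Mir151 and Mir369 were nearest to Mir18, at distances of 0.10 and 0.12, and Mir23a and Mir411 to Mir92-1, both at 0.17. Mir19a lay beside Mir223 and Mir192, both at 0.08, and Mir19b-1 beside Mir212 (0.08) and Mir146 (0.11). With 2 libraries this likeness is one of level. None of the nearest genes of Mir19a or Mir19b-1 carries their seed, while Mir93 shares that of Mir20a.

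Reads on the strand opposite to the gene numbered 0 for all 6 members and for the 11 related genes in both libraries. The counts above are therefore those of the transcribed strand of each gene, and counting either strand left these counts unchanged.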

How the data were processed

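The deposited read-me texts name build mm10 and GENCODE M4, and the authors made 1 gene table for each library. The aligner and counter were "not given in the sources used here". The deposited values are raw read counts on either, the same and the opposite strand. Same-strand counts were used. Summary rows (unmapped 16.7% and 15.0%, multi-mapped 40.6% and 43.9%, unassigned 3.99% and 3.71% of reads, ambiguous 0) were left out of library sizes. Names and positions came from GENCODE M21 (GRCm38), which matched 1894 of 1973 identifiers, and sequences from RefSeq, which matched 17 of the 17 genes described. All 17 hairpins are the same in both sources.

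CPM, shares with 95% Wilson intervals, ratios with 95% exact (Clopper-Pearson) intervals and TMM ratios (edgeR 4.0.16, R 4.3.3, prior count 0.5) were computed here. A two-sided exact binomial test covered genes whose counts summed to 10 or more over both libraries, with Benjamini-Hochberg adjustment. It was tried on simulated data that held counting error alone and known changes. That trial says nothing about libraries that differ by more than counting error. A copy was another annotated microRNA gene sharing at least 20 bases or a mature sequence. Named genes were the members, 11 genes of the paralog clusters or seed families, and the 2 nearest in level to each member; Mir6383 and Mir367 share a seed and were named after their values were seen. Members and lists were chosen with earlier results of these data known. Alternatives were DESeq2 1.42.0 size factors, library totals, either strand, all reads, gene length, no filter, copies left out, single libraries and an edgeR exact test with common dispersion.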

Additional observations from a re-analysis of the deposited data

How the results depend on the processing

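With every read of the library as the total, the 6 genes held 3.10% in place of 8.16%. Without the genes that have copies (Mir19b-1 and Mir92-1) they held 7.67%, the miR-17 family held 91.0% of what was left, the miR-19 family 0.121%, the fold from highest to lowest was 528 in place of 2137, and the fold over the chromosome 5 cluster was 1.98. No miR-92 share can be given there, since its only member is left out. The exact binomial test called 4 members with TMM (4 higher; 185 of 475 genes), 3 with DESeq2 size factors (3 higher; 185 of 475) and 4 with library totals (3 higher and 1 lower; 195 of 475). The edgeR exact test called 0 members (0 at an unadjusted p under 0.05) and 1 of 475 genes (31 at an unadjusted p under 0.05). Its dispersion was estimated from the same difference it tests, so few calls are built in and it says nothing about the members. Mir18 changed direction with library totals (-0.059) and stood at 0.00 with DESeq2 size factors. With 2 libraries, leaving out either moves a mean by less than the SD by construction, so it says nothing about stability, and with 1 library left there is no comparison. No paired analysis was possible because there is 1 group. Depth limits Mir19b-1, whose counts were 91 and 93, and Mir19b-2, with 26 and 28.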

Other observations

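The annotations used here place the start of the host gene differently. GENCODE M21 starts Mir17hg at 115042879 on chromosome 14 (GRCm38), upstream of the cluster, so that all 6 hairpins lie inside it. The RefSeq table (GRCm38.p6) starts it at 115044390, after 4 of the 6 hairpins and 1 base before the end of Mir19b-1, so that only Mir92-1 lies wholly inside. Mir17, the member with the most counts at 48988 ± 625 CPM, lies upstream of that RefSeq start.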
